A study of Homo sapiens with 19 samples.

Results

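In HIF-2α overexpressing 786-O cells, 1104 of 5283 HIF-2α peaks lay where no HIF-α peak was called in the control or HIF-1α re-expressing cells but where HIF-1β had a peak in the control cells. 786-O, a long-established clear cell kidney cancer line, lacks functional VHL, the ubiquitin ligase component that marks HIF-α subunits for destruction. Pools of these cells carried the empty pRRL vector (control cells), a HIF-1α virus (HIF-1α re-expressing cells) or a HIF-2α virus (HIF-2α overexpressing cells), and all 3 pools therefore share the VHL defect and the endogenous HIF-2α. HIF-1β and HIF-2α were mapped by ChIP-seq in each pool and HIF-1α in the HIF-1α re-expressing cells, with 1 library per antiserum and pool, which gave 29309 windows in 7 lists. Polyadenylated RNA was sequenced from 3 libraries per pool. The virally infected cells were pools and not clones, and the vector also encodes EGFP after an internal ribosome entry site.

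The 1104 sites were chosen by the peak lists themselves, as 2500 bp windows on GRCh37. Of the 5283 HIF-2α windows of the overexpressing cells, 3805 shared no base with a HIF-2α window of control cells, 3491 of these shared none with a HIF-2α window of re-expressing cells, and 2632 also shared none with a HIF-1α window. Of these 2632 new windows, 1104 shared at least 1 base with a HIF-1β window of control cells, 119 shared bases with HIF-1β windows of the other pools only, and 1409 shared none with any HIF-1β window. The selection thus used the HIF-2α lists, the HIF-1α list and the control HIF-1β list, so presence or absence in these is a description and no finding. The members at the edge of the rule shared 18, 42 and 72 bases with a control HIF-1β window, against a median of 2260 bases, and the new windows just outside it lay 50, 65 and 134 bases from one. The nearest window of an excluded list was 37 bases away at the closest and 48790.5 bases at the median. No signal heights were in the lists, so a window that just missed a peak call and one without any signal cannot be told apart.

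HIF-α and HIF-1β (ARNT) are bHLH-PAS proteins that bind DNA as a heterodimer at the hypoxia response element, whose core is ACGTG or GCGTG. HIF-1β is also the partner of other bHLH-PAS proteins, among them the aryl hydrocarbon receptor, so a HIF-1β peak alone does not name the α partner. AP-1, a dimer of Jun and Fos family proteins, binds TGACTCA or TGAGTCA and is found at enhancers of many adherent cell types. In VHL-defective kidney cancer HIF-2α is regarded as the isoform that favours tumour growth.

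The sequences of 7 sites are shown because their genes changed in RNA-seq or because they hold the most motifs. Each is the 300 bp around the window midpoint on the plus strand of GRCh37, with HRE cores and AP-1 motifs on either strand in capitals. CACGT and CACGC are the HRE cores read on the opposite strand, and CACGTG counts as 2 overlapping cores. The first lies at chr20:48190482-48190781, upstream of PTGIS, and the second at chr2:237551275-237551574, downstream of ACKR3. The third is at chr15:40213079-40213378, at the start of GPR176.
PTGIS: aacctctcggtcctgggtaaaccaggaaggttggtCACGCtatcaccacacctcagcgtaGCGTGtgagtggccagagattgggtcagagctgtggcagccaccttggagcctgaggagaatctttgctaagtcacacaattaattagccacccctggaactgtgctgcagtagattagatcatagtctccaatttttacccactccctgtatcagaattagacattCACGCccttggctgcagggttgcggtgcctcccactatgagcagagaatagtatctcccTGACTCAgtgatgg
ACKR3: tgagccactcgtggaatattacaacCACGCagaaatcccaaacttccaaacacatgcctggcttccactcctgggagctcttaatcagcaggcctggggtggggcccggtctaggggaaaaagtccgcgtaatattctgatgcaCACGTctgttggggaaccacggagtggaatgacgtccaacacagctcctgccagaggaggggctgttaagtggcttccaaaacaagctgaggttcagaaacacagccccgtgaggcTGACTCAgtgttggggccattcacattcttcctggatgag
GPR176: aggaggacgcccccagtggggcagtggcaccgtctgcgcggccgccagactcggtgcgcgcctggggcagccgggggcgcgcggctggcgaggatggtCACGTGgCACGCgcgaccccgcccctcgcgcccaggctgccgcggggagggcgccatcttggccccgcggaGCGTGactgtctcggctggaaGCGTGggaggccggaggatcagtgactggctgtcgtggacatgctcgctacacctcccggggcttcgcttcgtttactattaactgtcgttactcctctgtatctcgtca
The PTGIS and ACKR3 sites are intergenic and each holds an AP-1 motif beside 3 and 2 HRE cores, respectively. The GPR176 site held 5 HRE cores and no AP-1 motif, and its midpoint was 92 bp from the GPR176 start site and 14 bp from that of its divergent transcript GPR176-DT. The ACKR3 and GPR176 sites were added after their values had been seen. The following 4 sites held the most HRE cores, the most AP-1 motifs or the most of both of all 1104.
PCGF5: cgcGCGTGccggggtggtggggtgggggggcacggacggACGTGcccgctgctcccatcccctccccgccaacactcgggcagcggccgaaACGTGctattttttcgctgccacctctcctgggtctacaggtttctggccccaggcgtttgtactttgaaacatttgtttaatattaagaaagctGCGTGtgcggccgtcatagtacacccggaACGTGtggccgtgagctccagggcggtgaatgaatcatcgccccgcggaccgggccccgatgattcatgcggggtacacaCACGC
GRAMD4: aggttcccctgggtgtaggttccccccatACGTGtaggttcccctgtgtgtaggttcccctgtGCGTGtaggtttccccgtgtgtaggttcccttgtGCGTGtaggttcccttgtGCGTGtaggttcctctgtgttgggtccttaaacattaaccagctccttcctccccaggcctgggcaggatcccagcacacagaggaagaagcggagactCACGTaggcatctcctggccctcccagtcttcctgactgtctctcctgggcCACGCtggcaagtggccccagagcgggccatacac
LDLRAD3: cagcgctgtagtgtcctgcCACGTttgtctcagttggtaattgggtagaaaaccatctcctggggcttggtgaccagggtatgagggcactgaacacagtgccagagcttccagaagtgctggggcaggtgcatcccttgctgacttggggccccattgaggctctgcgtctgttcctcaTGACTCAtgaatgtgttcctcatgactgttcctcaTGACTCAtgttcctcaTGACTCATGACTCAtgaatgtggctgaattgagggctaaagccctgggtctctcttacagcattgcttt
DENND2A: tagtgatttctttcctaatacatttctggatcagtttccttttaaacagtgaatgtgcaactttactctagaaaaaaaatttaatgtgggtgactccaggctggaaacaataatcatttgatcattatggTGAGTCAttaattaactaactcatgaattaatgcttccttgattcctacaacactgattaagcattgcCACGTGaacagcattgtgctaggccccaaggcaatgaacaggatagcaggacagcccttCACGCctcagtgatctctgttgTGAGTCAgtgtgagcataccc
The site in PCGF5, a Polycomb group ring finger gene, at chr10:92923579-92923878, and the intronic site at chr22:47013319-47013618, nearest GRAMD4, each held 6 HRE cores. Several of the cores at the GRAMD4 site lay in a stretch of short repeats. The LDLRAD3 site at chr11:36171208-36171507 held 4 AP-1 motifs in a stretch of short repeats, and the DENND2A site at chr7:140264401-140264700 held 3 HRE cores and 2 AP-1 motifs. Apart from the LDLRAD3 site, the windows named here shared a base with a HIF-1β window of overexpressing or re-expressing cells.

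HIF-1β was called again at a minority of the sites once HIF-2α was overexpressed. Of the 1104 sites, 320 (28.99%, 95% Wilson interval 26.4% to 31.7%) shared a base with a HIF-1β window of the overexpressing cells, a list that the selection did not use. This was more than at control HIF-1β windows without any HIF-α window, of which 266 of 1512 (17.6%, 15.8% to 19.6%) did so, a difference of 11.4 points with a Newcombe interval of 8.11 to 14.7. It was fewer than at the endogenous HIF-2α windows that held HIF-1β in control cells, where 1036 of 1483 (69.9%) kept a HIF-1β call, a difference of -40.9 points (-44.3 to -37.2). These intervals cover counting error over windows only, and no p-value is given, since each antiserum and pool had a single library. The HIF-1β list was also shorter in overexpressing than in control cells, with 3431 against 6572 windows, and the depth of the libraries is unknown.

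In HIF-1α re-expressing cells the HIF-1β list had 5807 windows, yet only 114 of the 1104 sites (10.3%, 8.67% to 12.3%) shared a base with it. Here the sites stood below the control HIF-1β windows without HIF-α, with 223 of 1512 (14.7%), a difference of -4.42 points (-6.93 to -1.85). They stood below the endogenous HIF-2α/HIF-1β windows (666 of 1483, 44.9%) by a difference of -34.6 points (-37.6 to -31.4). Only 44 sites (3.99%) had a HIF-1β window in both infected pools, and 390 (35.3%) had one in at least 1 of them. At the remaining sites HIF-1β was called in control cells only.

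**Figure D1:**
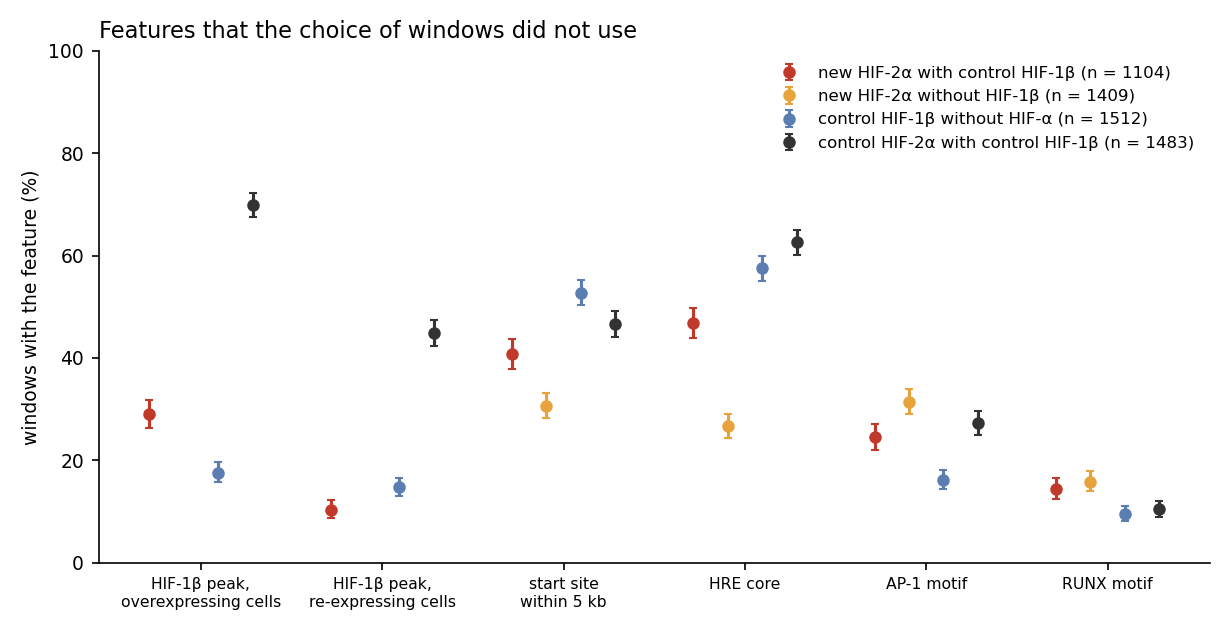
Share of windows (%) with a HIF-1β peak in each infected pool, a start site within 5 kb, or an HRE core, AP-1 or RUNX motif in the central 300 bp; points are shares, bars 95% Wilson intervals (counting error only). New HIF-2α windows without HIF-1β have no point for the HIF-1β columns, which chose them. The 1104 sites (red) lie between the other groups for HRE cores, at 46.8%.

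The HIF-2α midpoints lay close to those of control HIF-1β, as a description, since both lists entered the selection. The distance between the midpoints had a median of 240 bp, with quartiles of 100 and 500 bp, and was at most 250 bp at 570 of the 1104 sites (51.6%) and at most 500 bp at 831 (75.3%). At the endogenous HIF-2α windows with control HIF-1β the median was 306 bp. Where the midpoints of the 1104 were within 250 bp, 181 of 570 sites (31.8%) had HIF-1β in overexpressing cells, against 139 of 534 (26.03%) where they were farther apart, a difference of 5.72 points (0.368 to 11.0).

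**Figure D2:**
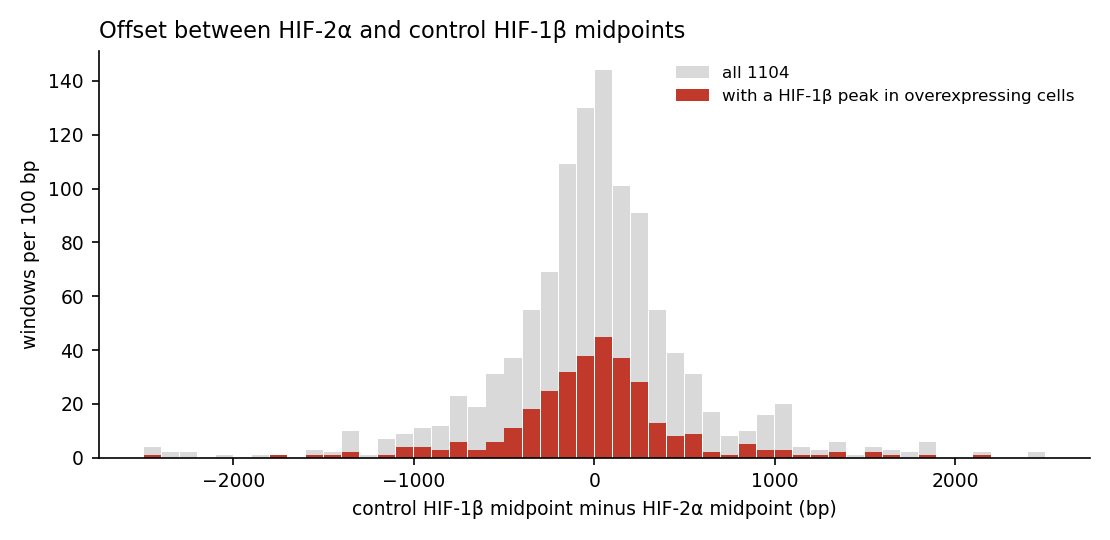
Number of the 1104 sites per 100 bp of signed distance (bp) between the control HIF-1β midpoint and the HIF-2α midpoint; grey bars are all sites, red bars the 320 with a HIF-1β peak in overexpressing cells. Both are highest near 0, and 570 sites lie within 250 bp.

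More of the sites were distal than near a start site. The median distance to the nearest of all annotated start sites was 7586.5 bp, against 11169 bp for new windows without HIF-1β, 5743 bp for endogenous HIF-2α/HIF-1β windows and 4384 bp for control HIF-1β windows without HIF-α. A start site lay within 5 kb of 450 sites (40.8%, 37.9% to 43.7%). This was 10.1 points above new windows without HIF-1β (30.7%, interval of the difference 6.33 to 13.9). Against control HIF-1β windows without HIF-α (52.8%) the difference was -12.02 points (-15.8 to -8.16), and against endogenous windows (46.7%) it was -5.90 points (-9.73 to -2.04). Most midpoints were in introns (662 sites, 60.0%) or between genes (344, 31.2%). The nearest start site belonged to a protein-coding gene at 547 sites (49.5%), a lncRNA at 324 (29.3%), a pseudogene at 117 (10.6%) and a small RNA at 104 (9.42%). Sites near a start site held HIF-1β in overexpressing cells more often, at 151 of 450 (33.6%) within 5 kb against 169 of 654 (25.8%) farther away, a difference of 7.71 points (2.25 to 13.2). The same split was 14.7% against 7.34% for HIF-1β of re-expressing cells, a difference of 7.33 points (3.597 to 11.3).

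Other HIF-α windows were often in the neighbourhood. The nearest control HIF-2α midpoint was 173597 bp away at the median and the nearest HIF-1α midpoint 85369 bp. An excluded window had its edge within 10 kb of 231 sites (20.9%) and within 50 kb of 559 (50.6%), against 14.0% and 38.0% of new windows without HIF-1β. Control HIF-1β windows without HIF-α had 19.8% and 49.9%.

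An HRE core lay in the central 300 bp of 517 of the 1104 sites (46.8%, 43.9% to 49.8%). In the 300 bp stretches 2 kb to either side, 30.5% held one, as did 45.7% of the 5283 HIF-2α windows of overexpressing cells that the sites are part of, 60.2% of all distinct windows of the 7 lists and 48.4% of 35116 RefSeq promoters of the same length (GRCh38.p14). New HIF-2α windows without HIF-1β had a core at 375 of 1409 (26.6%), 20.2 points fewer (interval 16.4 to 23.9), and hardly more than their own flanks (24.4%). The control HIF-1β windows without HIF-α, at 57.5%, and the endogenous HIF-2α/HIF-1β windows, at 62.6%, held more than the sites, by differences of -10.6 points (-14.5 to -6.77) and -15.8 points (-19.6 to -11.95). For sites with HIF-2α and control HIF-1β midpoints within 250 bp, these differences were -5.54 points (-10.3 to -0.759) and -10.7 points (-15.5 to -5.94). At the sites, cores peaked at the midpoint, with 2.63 per kb in the 100 bp before it against 1.48 per kb at the outer edge of the scanned 3 kb. In new windows without HIF-1β the bins of the scanned 3 kb ranged from 0.816 to 1.27 per kb, with 1.19 and 1.12 per kb in those beside the midpoint. Of the 809 cores in the sites, 427 (52.8%) read ACGTG and 382 (47.2%) GCGTG.

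AP-1 motifs lay in the central 300 bp of 271 sites (24.5%, 22.1% to 27.2%) and of 1303 of the 5283 HIF-2α windows of overexpressing cells (24.7%), against 4.44% of the sites' flanks, 14.8% of all distinct windows of the 7 lists and 4.95% of RefSeq promoters. This was below the new windows without HIF-1β (442 of 1409, 31.4%, difference -6.82 points, -10.3 to -3.29) and above control HIF-1β windows without HIF-α (245 of 1512, 16.2%, difference 8.34 points, 5.22 to 11.5). From the endogenous HIF-2α/HIF-1β windows (27.2%) the sites differed by -2.69 points, with an interval of -6.07 to 0.732 that includes 0. Within 1000 bp around the midpoint this last difference turned to 1.72 points.

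**Figure D3:**
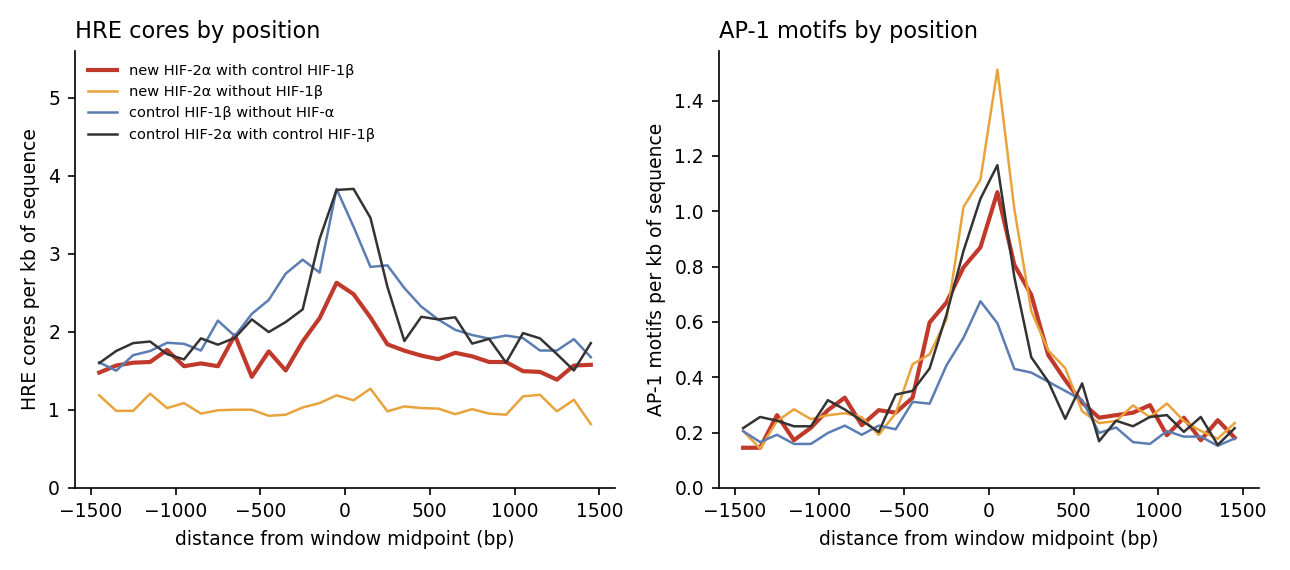
HRE cores (left) and AP-1 motifs (right) per kb of sequence in 100 bp bins, by distance (bp) from the window midpoint, for the 4 groups of windows; lines join bins and carry no error. For the 1104 sites (red) HRE cores reach 2.63 per kb at the midpoint and AP-1 motifs 1.07 per kb, while for new HIF-2α windows without HIF-1β (orange) HRE cores stay between 0.816 and 1.27 per kb.

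Both motifs were found in 148 sites (13.4%), an HRE core alone in 369 (33.4%), an AP-1 motif alone in 123 (11.1%) and neither in 464 (42.0%). An AP-1 motif lay in 148 of 517 sites with an HRE core (28.6%) and in 123 of 587 without (21.0%), a difference of 7.67 points (2.58 to 12.8). Where both were present, the nearest pair was 57.5 bp apart from centre to centre at the median, and 32 of the 148 pairs were within 20 bp. Of the 1409 new windows without HIF-1β, 708 (50.2%) held neither, 326 (23.1%) an AP-1 motif alone and 259 (18.4%) an HRE core alone.

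HRE cores were more frequent where HIF-1β was called in the infected pools. Of the 320 sites with HIF-1β in overexpressing cells, 187 (58.4%) held an HRE core, against 330 of 784 (42.1%) without, a difference of 16.3 points (9.86 to 22.6). For AP-1 motifs the interval included 0, at 75 of 320 against 196 of 784, a difference of -1.56 points (-6.90 to 4.17). For HIF-1β in re-expressing cells the HRE shares were 57.0% of 114 and 45.7% of 990 sites, a difference of 11.4 points (1.68 to 20.6).

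Where the HIF-2α and control HIF-1β midpoints were over 500 bp apart (273 sites), the 300 bp stretches around them do not overlap. HRE cores were found within 150 bp of the HIF-2α midpoint at 112 sites (41.03%, 35.3% to 46.9%) and of the HIF-1β midpoint at 109 (39.9%, 34.3% to 45.8%). AP-1 motifs were at 64 HIF-2α midpoints (23.4%, 18.8% to 28.8%) and at 36 HIF-1β midpoints (13.2%, 9.68% to 17.7%). RUNX motifs (TGTGGTT) were at 36 (13.2%, 9.68% to 17.7%) and 19 (6.96%, 4.50% to 10.6%).

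Base composition differed between the groups and bears on any motif with a CG. The central 300 bp of the sites had a median GC content of 48.7% and 4 CpG dinucleotides, against 42.3% and 2 in new windows without HIF-1β, and 51.3% and 5 in endogenous windows. Within each of the 5 GC bins the HRE share of the sites was above that of new windows without HIF-1β. In windows of 45% to 50% GC it was 127 of 284 (44.7%, 39.0% to 50.5%) against 90 of 294 (30.6%, 25.6% to 36.1%), and in those of 40% to 45% GC it was 42.9% against 25.95%. At 45% to 50% GC the endogenous windows stood at 62.5% and the control HIF-1β windows without HIF-α at 52.6%. Over 5 kb from a start site the HRE share was 44.04% at the sites (288 of 654), 24.3% at new windows without HIF-1β and 60.2% at endogenous windows.

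**Figure D4:**
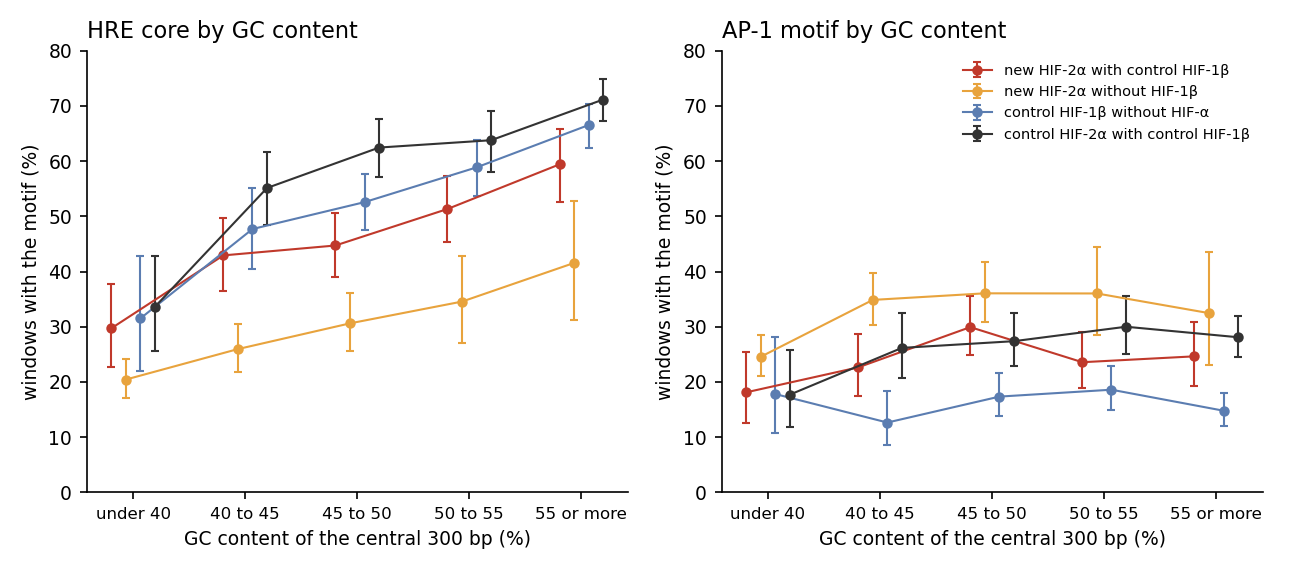
Share of windows (%) with an HRE core (left) or an AP-1 motif (right) by GC content of the central 300 bp (%), with 95% Wilson intervals, for the 4 groups of windows. In each GC bin the 1104 sites (red) have a higher HRE share than new HIF-2α windows without HIF-1β (orange), for instance 44.7% against 30.6% at 45% to 50% GC.

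Of 8 further motifs, RUNX (TGTGGTT) was found in 158 sites (14.3%) against 4.94% of flanks and 6.69% of all distinct windows, a share 4.79 points (2.28 to 7.38) above control HIF-1β windows without HIF-α and 3.86 points (1.31 to 6.49) above endogenous windows. In new windows without HIF-1β it was in 223 of 1409 (15.8%), a difference of -1.52 points with an interval of -4.30 to 1.33 that includes 0. The TEAD motif (GGAATG) was in 24.8% of sites and 15.9% of flanks, with no difference from the 3 groups whose interval left out 0. The GC box (GGGCGG), a promoter element, was in 10.7% of sites and 5.62% of their flanks, more than in new windows without HIF-1β (4.47%, difference 6.22 points, 4.14 to 8.40) and fewer than in control HIF-1β windows without HIF-α (18.1%) and endogenous windows (17.5%). The E-box CACGTG, which contains the HRE core on both strands, was in 6.61% of sites and 4.17% of flanks, and AHR-type cores (TNGCGTG, which contain an HRE core) in 5.71% and 5.07%. CRE-like (TGACGTCA) and ETS (CCGGAAG) motifs were in 0.181% and 1.27% of sites, and CCAAT was rarer at the centre (29.1%) than in the flanks (34.1%).

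For gene expression each site was assigned to its nearest start site. Distances to a gene's start were taken to the nearest annotated start of any of its transcripts, which can lie inside the gene. The 1104 sites had 980 distinct nearest genes, 880 of them with a single site, of which 515 were in the RNA-seq table and 444 passed the filter on low counts. Libraries held 27852754 to 54287621 counts. The labels were checked first: EPAS1, which encodes HIF-2α, had 162 to 456 CPM (counts scaled to library size) in control and 880 to 3240 CPM in overexpressing cells, and its counts include transcripts of the vector. HIF1A was at 30.4, 36.7 and 152 CPM in control and 171, 1680 and 473 CPM in HIF-1α re-expressing cells, which puts control replicate 3 close under the lowest re-expressing library. The study reports that uninfected 786-O alleles yield truncated or fused HIF1A transcripts and no wild-type HIF-1α. Counts per gene do not separate these from full-length transcripts. ARNT, which encodes HIF-1β, was at 38.6, 42.6 and 33.1 CPM in control and 39.3, 51.8 and 45.4 CPM in overexpressing cells. The renal markers PAX8 and PAX2, the epithelial keratins KRT8 and KRT18, and CDH2 and VIM had at least 8.53 CPM in every library. The leukocyte and endothelial markers PTPRC, CD3E, PECAM1 and CDH5 had at most 0.838 CPM.

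How many nearest genes were called after HIF-2α overexpression depended on the model. edgeR's quasi-likelihood test without a block passed none of the 444 at an adjusted p of 0.05, nor any (0%) of the 14225 genes tested. At an unadjusted p under 0.05 there were 48 of the 444 and 838 of the 14225. Among nearest genes of endogenous HIF-2α/HIF-1β windows it was 78 of 615. It was 57 of 485 for new windows without HIF-1β and 64 of 714 for control HIF-1β windows without HIF-α. When the replicate number entered as a block, edgeR called 2 of the 444 higher (background 0.112%) and 1 lower (background 0.155%). DESeq2 called 7 of the 444 without the block (background 0.450%), and 21 higher and 20 lower with it (backgrounds 1.87% and 1.5%). The overexpressed gene itself, EPAS1, was not called by edgeR with the block (adjusted p = 0.0690) or without it (0.490), so a gene missed by this test cannot be taken as unchanged. In 43 of the 444 (9.68%) the 3 overexpressing libraries all lay above the 3 control libraries, against 6% of all tested genes, and in 23 (5.18%) all below, against 5.19%. Endogenous HIF-2α/HIF-1β windows gave similar shares for their nearest genes, 9.92% above and 6.02% below. For new windows without HIF-1β the shares were 6.60% and 8.04%, and for control HIF-1β windows without HIF-α 7.14% and 6.02%. The median log2 fold change of the 444, with the block, was 0.09 and of all tested genes -0.01. Nearest genes of endogenous HIF-2α/HIF-1β windows had a median of 0.09, those of control HIF-1β windows without HIF-α -0.01 and those of new windows without HIF-1β 0.03. These medians are descriptions of lists that share genes, with no test. In bulk RNA, fewer expressing cells and less RNA per cell cannot be told apart.

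The 3 genes called with the block were GFRA2, ACKR3 and PTGIS. Of these only PTGIS has its start within 50 kb of the site, as the rule for named genes asked. GFRA2 and ACKR3 were singled out after their values had been seen. The calls used the same libraries, so a lack of overlap between pools in these 3 genes is no further evidence. GFRA2 encodes the receptor of the neurotrophic factor neurturin. Its level was 0.569, 0.654 and 1.04 CPM in control and 31.8, 78.1 and 50.4 CPM in overexpressing cells, with no overlap. The log2 fold change was 6.01 ± 0.52 (SE, replicate block, edgeR adjusted p = 0.00635, and 0.144 without the block), and 3 of 3 numbered pairs rose. HIF-1α re-expression left it at 0.490, 2.46 and 0.410 CPM. Its site, in intergenic sequence 104276 bp downstream of the start, held 2 HRE cores and no AP-1 motif, and kept HIF-1β in overexpressing cells, as did a further site 150452 bp from the same start with 3 HRE cores.

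ACKR3 (CXCR7), an atypical chemokine receptor that binds CXCL12, was at 38.0, 6.14 and 28.03 CPM in control and at 167, 183 and 493 CPM in overexpressing cells. All overexpressing libraries were above all control libraries, at a log2 fold change of 3.85 ± 0.50 (SE, replicate block, edgeR adjusted p = 0.0257, and 0.490 without the block). In re-expressing cells it was at 53.3, 11.3 and 33.3 CPM. Its site, 72957 bp downstream of the start, also held HIF-1β in overexpressing cells.

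PTGIS, the prostacyclin synthase gene, moved the other way. It had 5.28, 3.44 and 6.33 CPM in control, 1.16, 0.663 and 2.67 CPM in overexpressing and 21.6, 11.4 and 31.9 CPM in re-expressing cells, so the 3 pools did not overlap. The log2 fold change was -1.90 ± 0.28 (SE) after HIF-2α (edgeR adjusted p = 0.0372 with the replicate block, 0.741 without) and 2.02 ± 0.26 after HIF-1α (0.0264 with, 0.149 without). The HIF-1α call was lost without HIF-1α replicate 2, HIF-2α replicate 1, or control replicate 2 or 3. Its site was 5958 bp upstream of the start and kept HIF-1β in overexpressing cells.

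The call on GFRA2 held when each of the 9 libraries was left out of the fit with the block, at adjusted p of 0.000950 to 0.0432. ACKR3 lost its call without HIF-2α replicate 3 (0.140), control replicate 2 (0.130) or control replicate 3 (0.131). PTGIS kept it only without HIF-1α replicate 3 (0.0301), and was at 0.0512 to 0.156 without each of the other 8.

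Since the nearest start site was often that of a non-coding gene, the nearest protein-coding start site was used as well, combined with the block after the data had been seen. Of 761 tested genes, 5 were then called higher and 2 lower (backgrounds 0.112% and 0.155%), the further ones being F3, GPR176, SIGLEC6 and WNT7B. F3, tissue factor, the initiator of coagulation, rose from 78.3, 86.7 and 79.2 CPM to 397, 506 and 558 CPM, a log2 fold change of 2.58 ± 0.38 (SE, replicate block, edgeR adjusted p = 0.0372). Its site was 81172 bp away, 1253 bp from the start of SLC44A3-AS1, annotated as a transcribed pseudogene. GPR176, an orphan receptor, rose from 48.9, 46.5 and 62.5 CPM to 93.4, 101.4 and 145 CPM, or 2.13-fold (replicate block, edgeR adjusted p = 0.0372), with its site at the start.

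WNT7B, a secreted Wnt ligand, fell from 39.0, 31.9 and 72.5 CPM to 6.67, 11.5 and 15.4 CPM, a log2 fold change of -2.07 ± 0.31 (SE, replicate block, edgeR adjusted p = 0.0372), with its site 54724 bp away. SIGLEC6 was at or near 0 in control cells (0, 0 and 0.0261 CPM) and at 0.409, 2.20 and 1.00 CPM in overexpressing cells, and no fold is given. The groups did not overlap for any of these 4 genes. Since the block fit picked them on the same libraries, this is a description and no further evidence. Of all tested genes, 6% had all overexpressing libraries above all control libraries and 5.19% all below. Without the block the edgeR adjusted p of the 4 genes were 0.466 for F3, SIGLEC6 and WNT7B and 0.490 for GPR176. With the block, leaving out a library ended the call in 6 of 9 cases for F3, and in 7 of 9 each for GPR176, WNT7B and SIGLEC6, with adjusted p up to 0.177, 0.197, 0.196 and 0.239.

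**Figure D5:**
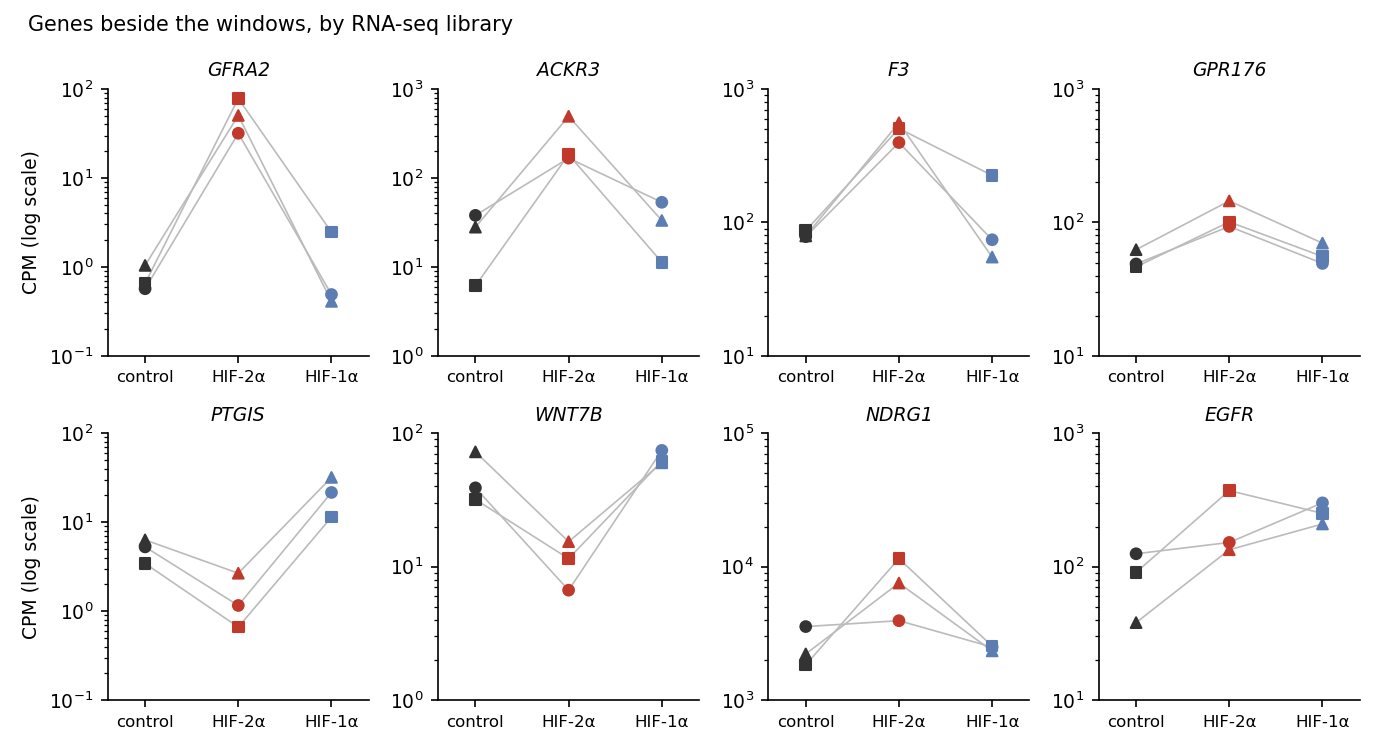
Level in CPM (log scale) of 8 genes beside the sites in each of the 9 RNA-seq libraries; black is control, red HIF-2α overexpressing and blue HIF-1α re-expressing cells, circles, squares and triangles are replicates 1, 2 and 3, and lines join equal numbers. GFRA2 rises from at most 1.04 CPM in control to at least 31.8 CPM in overexpressing cells, while PTGIS falls there and rises in re-expressing cells.

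Of 46 known HIF target genes, 45 were tested and 9 had a site nearest them or within 50 kb. With the block edgeR called 1 of the 9 higher, a gene not reported here by name, and none lower (backgrounds 0.112% and 0.155%), and over the 45 tested 2 were called higher. Median log2 fold changes were 0.87 over the 9 and 0.67 over the 45.

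The other 8 targets with a site did not pass edgeR's test. DESeq2 with the block passed SLC2A1 (adjusted p = 0.00314), IGFBP3 (0.00479) and LOXL2 (0.0367) of them, where its backgrounds are 1.87% higher and 1.5% lower. DESeq2 without the block passed NDRG1 (0.0275), where its background is 0.450% in either direction. With the block NDRG1 did not pass (0.396), and without it SLC2A1 (0.0590), IGFBP3 (0.847) and LOXL2 (0.710) did not. None of these genes thus passed both DESeq2 fits. NDRG1, a stress-responsive gene, had sites 722 and 1560 bp from different annotated starts. It was at 3560, 1840 and 2220 CPM in control and 3940, 11500 and 7540 CPM in overexpressing cells (edgeR adjusted p = 0.167 with the block). SLC2A1, the glucose transporter GLUT1, was at 1260, 995 and 944 against 1590, 2960 and 2400 CPM (0.140). Its site lay 4845 bp from the nearest of its annotated starts, which need not be its main one. CCND1, cyclin D1, was at 1190, 698 and 1100 against 1170, 1560 and 1680 CPM (0.338). Its site, likewise 6998 bp from the nearest of its annotated starts, held 2 HRE cores. Levels of control and overexpressing cells did not overlap for NDRG1 and SLC2A1, and did for CCND1. All overexpressing libraries lay above all control libraries in 6% of all tested genes.

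Of 19 MAPK and receptor signalling genes 6 had a site near and of 28 actin, adhesion and matrix genes 9, and edgeR with the block called none of these 15 after HIF-2α overexpression, where the background is 0.112% higher and 0.155% lower, at medians of 0.26 and 0.07 on the log2 scale, respectively. DESeq2 with the block passed EGFR (adjusted p = 0.00488) and MYH9 (0.0108), where its backgrounds are 1.87% higher and 1.5% lower. Without the block DESeq2 passed neither EGFR (0.309) nor MYH9 (0.719). EGFR, the epidermal growth factor receptor, had sites 22805, 34165 and 45150 bp from the nearest of its annotated starts, which differed between sites. It was at 125, 90.6 and 38.1 CPM in control, 152, 372 and 134 CPM in overexpressing and 301, 251 and 209 CPM in re-expressing cells, and passed the test after HIF-1α (log2 fold change 1.71, edgeR adjusted p = 0.0366 with the block and 0.165 without it) and not after HIF-2α (0.160 with the block). Its HIF-1α call was lost when any of the same 4 libraries as for PTGIS was left out. The difference between these effects was not tested.

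MYH9, non-muscle myosin IIA, with a site 46258 bp away at the start of APOL2, was at 1270, 2330 and 1500 CPM in control and 2380, 3360 and 2600 CPM in overexpressing cells. The MYH9 levels of control and overexpressing cells did not overlap, with all overexpressing libraries higher, as in 6% of all tested genes. Sites at ITGB1, the integrin β1 gene, lay at its divergent transcript ITGB1-DT and 4681 bp upstream of the nearest of its annotated starts. The ITGB1 level was 1670, 2070 and 1600 against 1900, 2070 and 1860 CPM. None of the AP-1 subunit genes (10) and none of the AHR targets (7) had a site near, and of the 13 bHLH-PAS genes only EPAS1 did. Its sites lay 17686 and 24183 bp from the nearest of its annotated starts, which differed between sites. With the block edgeR called none of the 9, 6 and 11 tested genes of these lists after HIF-2α overexpression, EPAS1 included (backgrounds 0.112% and 0.155%), at median log2 fold changes of -0.05, -0.77 and 0.05.

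After HIF-1α re-expression, which shares its 3 control libraries with the comparison above, the block fit called 30 of the 444 nearest genes higher (background 5.41%) and 15 lower (background 2.55%). Without the block none was called, of the 444 or of all genes, and with it leaving out HIF-1α replicate 2, HIF-2α replicate 1, or control replicate 2 or 3 took the calls from 1132 to 0 genes in all. The median log2 fold change of the 444 was 0.14, and of all tested genes 0.04.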

How the data were processed

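ChIP-seq windows and RNA-seq counts of 786-O pools were used as deposited. Per the labels and the study's methods, the authors trimmed reads with Trim Galore 0.3.3, aligned ChIP reads with BWA 0.7.5a-r405, removed duplicates with Picard 1.106, and required a call by each of T-PIC and MACS plus a read total above background regions. The lists hold positions only, so their depth is unknown, and 3 input libraries were not used here. The authors made the deposited counts per gene with TopHat 2.0.8b, Bowtie 1.0.0 and HTSeq 0.5.4p3 in intersection-strict mode. Depth was 27852754 to 54287621 counts per library.

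The members and the gene and motif lists were chosen with earlier results of these data known. Windows were compared by shared bases, motifs were searched on both strands in the 300 bp around midpoints of GRCh37, and start sites came from GENCODE release 44 on GRCh37. Midpoints were those of HIF-1β for the control HIF-1β windows without HIF-α and those of HIF-2α for the sites and the other groups. Shares carry 95% Wilson and differences Newcombe intervals, which cover counting error only. Counts of 14225 genes passing filterByExpr were tested with edgeR 4.0.16 (quasi-likelihood, TMM, all 9 libraries, two-sided, Benjamini-Hochberg over all tested genes at 0.05), without and with the replicate number as a block. CPM values were counts scaled to the TMM-adjusted library size. DESeq2 1.42.0, other filters and leaving out libraries were alternatives. The fit without the block was tested on simulated counts with a fixed spread and no replicate effect, so this does not bear on the fit with the block.

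The replicate numbers of the labels pair the libraries: after removing pool means, the 9 same-numbered pairs correlated at 0.377 to 0.650 and the 18 others at -0.451 to 0.0205. The labels do not say what a number stands for, nor that replicates were separate cultures, so p-values measure the spread between these libraries, which may be technical. Named genes were those near a site (within 50 kb of the nearest start, at least 5 CPM on average in the higher pool, moving the same way in all 3 numbered pairs) past the threshold with the block, the label checks, and examples from fixed lists; some genes are not reported here. RNA symbols were matched to the annotation through RefSeq synonyms, for 22015 of 23441 symbols.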

Additional observations from a re-analysis of the deposited data

How the results depend on the processing

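Requiring midpoints within 250 bp left 570 of the 1104 sites, of which 31.8% had HIF-1β in overexpressing cells and 51.9% an HRE core. Start sites within 5 kb fell to 24.2% with protein-coding start sites and to 25.8% with 1 start site per gene. Scanning 100 or 1000 bp gave HRE shares of 18.4% and 82.7% and AP-1 shares of 8.88% and 49.7%, and at 1000 bp the AP-1 difference from endogenous windows turned to 1.72 points. Depth of the peak lists is unknown, and a window without a call may have been just under it. Gene calls depended on the model. After HIF-2α overexpression 0 genes were called without and 38 with the replicate block, 65 by DESeq2, 487 by DESeq2 with the replicate block, 1 with no filter beyond 1 count and 2 with only the 2 pools compared. Leaving out each library gave 0 to 2 genes without the block, and 2 (without control replicate 2) to 94 (without HIF-1α replicate 3) with it. The other values with the block were 19 and 26 without HIF-1α replicates 1 and 2, 10, 24 and 6 without HIF-2α replicates 1, 2 and 3, and 78 and 7 without control replicates 1 and 3. After HIF-1α re-expression the counts were 0 without and 1132 with the replicate block, 751 by DESeq2 and 3025 by DESeq2 with the replicate block, and leaving out each library gave 0 to 0 without and 0 to 2408 (without control replicate 1) with the block. It was 0 with the block without HIF-1α replicate 2, HIF-2α replicate 1, or control replicate 2 or 3, 211 and 34 without HIF-1α replicates 1 and 3, and 827 and 503 without HIF-2α replicates 2 and 3. Among the nearest genes of the sites 0 were called without and 3 with the replicate block, 7 by DESeq2, 41 by DESeq2 with the replicate block, and 1 each with no filter and with only the 2 pools. Leaving out each library gave 0 to 1 without the block, and 1 (without HIF-2α replicate 3, or control replicate 2 or 3) to 8 (without HIF-1α replicate 3) with it, and 6 without control replicate 1. Any start site within 10 kb gave 2 and protein-coding start sites 7, both with the block and chosen after seeing the data. The causes of these shifts were not tested.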
